A study of Homo sapiens with 9 samples.

Results

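A set of 10 genes used as readouts of YAP and TAZ was examined in MDA-MB-231 cells: CTGF, CYR61, ANKRD1, AMOTL2, AXL, DLC1, LATS2, VGLL3, NEXN and TEAD1. They are 10 of the 58735 genes measured, and all 10 were expressed above the level set for testing. They were chosen by name as YAP/TAZ targets and not by a threshold on their values, but with earlier results of these data known. Their shares beside those of all genes are therefore a description of a chosen set. MDA-MB-231 is an established human breast cancer line, labelled wild type. TIS CM cells received medium taken from MDA-MB-231 cells that nocodazole, a microtubule poison given at 100 ng/ml for 72 h, had rendered senescent (TIS stands for therapy-induced senescence). Cont CM cells received medium of non-senescent cells of the line, and No CM cells were kept in medium alone. Each of the 3 groups had 3 libraries of polyadenylated RNA. The sample labels put the exposure at 72 h and the series text at 48 h, and nothing in the data settles which applies. The donor and the recipient of each medium are the same line, nocodazole is the single inducer of senescence used, and no label says whether the replicates were separate cultures.

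YAP and TAZ (TAZ is encoded by WWTR1) are transcriptional coactivators at the end of the Hippo pathway. Active LATS kinases phosphorylate them and keep them in the cytoplasm, whereas on a stiff substrate, with tensed actin, or at low density they enter the nucleus and act through the DNA-binding TEAD factors. Among the 10 genes, CTGF, CYR61 and ANKRD1 are the targets most often used to read out this activity, AMOTL2 and LATS2 are targets that inhibit YAP in turn, AXL is a receptor tyrosine kinase, DLC1 is a GTPase-activating protein, NEXN binds actin, VGLL3 is a TEAD cofactor and TEAD1 is itself a TEAD factor.

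The TEAD factors bind the motif GGAATG, and it was looked for in the promoters of the 10 genes. RefSeq promoters (build GRCh38.p14) run from 250 bases before to 50 bases after the transcription start. They were examined for 7 of the 10 genes: CTGF (listed as CCN2), ANKRD1, AMOTL2, AXL, LATS2, VGLL3 and NEXN. The promoters of CYR61, DLC1 and TEAD1 were not examined. The motif counts therefore leave out DLC1 and CYR61, which both differed between media. The promoters of 4 genes are shown because they belong to genes that differed between media, 3 with the motif and 1 without it. The CTGF window is chr6:131951323-131951622 on the minus strand, ANKRD1 chr10:90921038-90921337 on the minus strand, NEXN chr1:77888374-77888673 on the plus strand and VGLL3 chr3:86991100-86991399 on the minus strand. They are written 5′ to 3′ along the gene, with each GGAATG in capitals.
CTGF: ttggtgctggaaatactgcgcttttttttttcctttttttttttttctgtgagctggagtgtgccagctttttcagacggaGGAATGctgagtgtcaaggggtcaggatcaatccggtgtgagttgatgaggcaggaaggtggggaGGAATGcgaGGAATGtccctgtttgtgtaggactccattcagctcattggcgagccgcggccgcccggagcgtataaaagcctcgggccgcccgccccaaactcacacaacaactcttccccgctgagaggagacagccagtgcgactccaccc
ANKRD1: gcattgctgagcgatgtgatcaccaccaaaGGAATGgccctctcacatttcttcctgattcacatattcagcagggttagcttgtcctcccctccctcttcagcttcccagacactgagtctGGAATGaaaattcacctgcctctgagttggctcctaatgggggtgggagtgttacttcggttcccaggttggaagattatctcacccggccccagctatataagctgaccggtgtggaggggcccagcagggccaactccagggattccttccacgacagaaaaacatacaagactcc
NEXN: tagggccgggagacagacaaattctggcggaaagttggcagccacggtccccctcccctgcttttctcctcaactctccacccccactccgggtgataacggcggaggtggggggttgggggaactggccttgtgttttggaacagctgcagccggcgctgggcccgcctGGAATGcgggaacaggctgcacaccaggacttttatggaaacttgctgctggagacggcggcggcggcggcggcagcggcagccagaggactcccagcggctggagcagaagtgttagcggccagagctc
VGLL3: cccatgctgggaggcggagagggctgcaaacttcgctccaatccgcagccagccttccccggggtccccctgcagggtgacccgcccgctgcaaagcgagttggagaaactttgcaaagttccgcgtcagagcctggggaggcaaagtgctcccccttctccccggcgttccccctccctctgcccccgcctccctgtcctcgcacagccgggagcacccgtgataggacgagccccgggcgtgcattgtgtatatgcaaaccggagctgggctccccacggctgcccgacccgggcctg

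Counting the start base as 0, CTGF held GGAATG at -169, -104 and -95, ANKRD1 at -220 and -128, and NEXN at -80. LATS2 held it at 9, after the RefSeq start, and AMOTL2, AXL and VGLL3 did not hold these letters in the window on either strand. The RefSeq starts do not all match the ends of the gene coordinates given below, and positions count from the RefSeq start. Of 35116 promoter windows of the same length, 14% held the motif at least once and 1.37% held it 2 or more times. The AP-1 motif TGANTCA occurred once among the 7 promoters, in ANKRD1 at -195, and in 7.71% of all windows. The CArG box, the site of the actin-regulated factor SRF, occurred in 0 of the 7 and in 1.29% of all windows. The motifs did not overlap, and a match is a string of letters and not a measured binding site.

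Libraries held 32636708 to 39189036 fragments assigned to genes and detected 22637 to 23295 genes. The mesenchymal markers of the line were present, with VIM at 345 to 401 FPKM (fragments scaled by gene length and library size) and ZEB1 at 7.95 to 10.1 FPKM, whereas SPARC lay between 0.0376 and 0.149 FPKM. ESR1 and PGR reached at most 0.00801 and 0.00539 FPKM, but the epithelial markers KRT8 (72.5 to 115 FPKM) and EPCAM (7.58 to 10.1 FPKM) were expressed. The sum of the 8 luminal and epithelial markers was highest in No CM: 113 to 116 FPKM in TIS CM, 93.9 to 117 in Cont CM and 127 to 141 in No CM. Most of the sum was KRT8, with means of 90.9, 81.1 and 109 FPKM in these groups. Mean CDH1 was 0.438, 0.299 and 1.17 FPKM. The means of EPCAM (8.61, 8.59 and 8.42 FPKM), FOXA1 and PGR were lowest in No CM, FOXA1 and PGR being near 0 throughout. The part of the difference in the sum in the results was not tested. The 10 markers of fibroblasts, immune cells and endothelium summed to 2.44 to 2.78 FPKM in TIS CM, 1.81 to 2.36 in Cont CM and 2.57 to 3.20 in No CM, and 1 of them was at 0 in every library. The libraries also differed within groups. Cont CM replicate 1 lay at -19.32 on the second principal component, which held 17.6% of the variance, against 13.44 and 7.62 for Cont CM replicates 2 and 3. In Cont CM replicate 2 a trend with GC content and gene length took up 17.7% of the variance between genes, against 0.6 to 5.5% in the other 8 libraries. Among the No CM libraries, replicate 1 differed more from replicates 2 and 3 (mean chi-square of fragments per gene 11.03 and 12.77) than these did from each other (5.355), and replicates 2 and 3 had 2.17% and 1.85% of fragments on mitochondrial genes, against 2.80 to 3.31% in the other 7 libraries. Leaving out any No CM library left the number of the 10 genes that passed at 3 in TIS CM against Cont CM, 6 in Cont CM against No CM and 0 in TIS CM against No CM.

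The 10 genes spanned a wide range of levels. The median FPKM over the 9 libraries ran from CYR61 at 687 through ANKRD1 (264), AXL (202), CTGF (122), AMOTL2 (34.1), TEAD1 (23.8), LATS2 (13.1), NEXN (11.0) and DLC1 (8.85) to VGLL3 at 0.876. Neighbours in this order did not overlap in any library, apart from LATS2 with NEXN and NEXN with DLC1. Since these are bulk RNA samples, a change in the share of cells that express a gene and a change in RNA per cell cannot be told apart for any of them. Even VGLL3, the lowest, rested on 261 to 702 fragments per library. In 7 of the 10 genes the group means had the same order, with Cont CM highest, TIS CM between and No CM lowest. The exceptions were AXL, which was highest in TIS CM, and LATS2 and TEAD1, which were lowest in TIS CM. Among the 7, AMOTL2 had means of 34.2, 34.5 and 34.0 FPKM in TIS CM, Cont CM and No CM, and its groups overlapped. The share of all genes tested with this order was not determined, so the count is a description only.

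**Figure D1:**
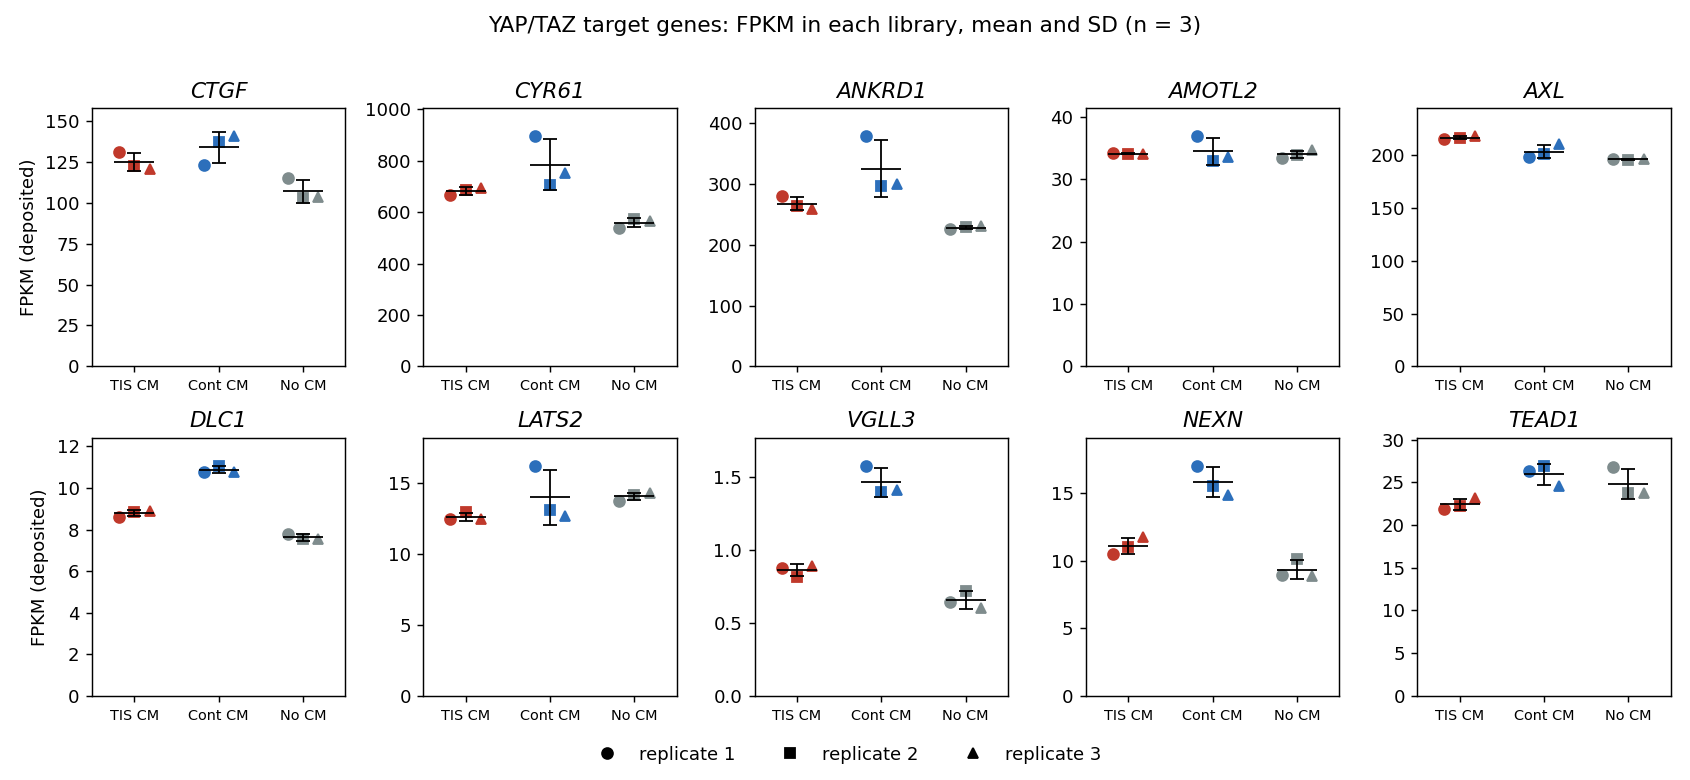
FPKM of each of the 10 genes in every library (points), with the mean (line) and SD of each group of 3; groups run TIS CM, Cont CM, No CM from left to right, and each panel has its own linear axis starting at 0. DLC1, VGLL3 and NEXN are highest in all 3 Cont CM libraries, whereas AMOTL2 lies between 33.0 and 37.0 FPKM throughout.

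CTGF (ENSG00000118523, chr6:131948176-131951373, hg38, minus strand) encodes the secreted matricellular protein CCN2, which acts on matrix production and adhesion. Its FPKM was 131, 122 and 121 in TIS CM, 123, 137 and 141 in Cont CM, and 115, 103 and 103 in No CM. All 3 Cont CM and all 3 TIS CM libraries lay above the No CM libraries, and TIS CM and Cont CM overlapped. An antisense transcript, AL133346.1, overlaps the gene with 503 to 868 fragments per library, against 8301 to 12924 on CTGF. CYR61 (CCN1; ENSG00000142871, chr1:85580761-85583962, plus strand), a related secreted protein, had 666, 687 and 696 FPKM in TIS CM, 897, 705 and 753 in Cont CM, and 538, 573 and 566 in No CM. The groups did not overlap, and the highest value came from Cont CM replicate 1.

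ANKRD1 (ENSG00000148677, chr10:90912096-90921276, minus strand), a nuclear and sarcomeric ankyrin repeat protein, had 279, 264 and 259 FPKM in TIS CM, 379, 296 and 300 in Cont CM, and 226, 229 and 230 in No CM. Again no library of a group overlapped another group, and Cont CM replicate 1 was far above the other Cont CM libraries. ANKRD1 averaged 325 ± 46.9 FPKM in Cont CM, against 228 ± 1.99 in No CM (SD, n = 3 each).

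For both inhibitors the groups lay close together. AMOTL2 (ENSG00000114019, chr3:134355874-134375479, minus strand), an angiomotin-family protein that holds YAP at cell junctions, had 34.3, 34.1 and 34.1 FPKM in TIS CM, 37.0, 33.0 and 33.5 in Cont CM, and 33.4, 33.9 and 34.7 in No CM. LATS2 (ENSG00000150457, chr13:20973032-21061547, minus strand), the kinase that phosphorylates YAP and TAZ, had 12.4, 12.9 and 12.4 FPKM in TIS CM, 16.2, 13.1 and 12.6 in Cont CM, and 13.7, 14.1 and 14.2 in No CM. In both genes the highest library was Cont CM replicate 1, and the other 2 Cont CM libraries were below every No CM library for LATS2.

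AXL (ENSG00000167601, chr19:41219203-41261766, plus strand), a receptor of the TAM family bound by GAS6, had 216, 216 and 218 FPKM in TIS CM, 198, 202 and 210 in Cont CM, and 197, 195 and 196 in No CM. The groups did not overlap, with TIS CM above Cont CM and Cont CM above No CM, but the steps were small. The antisense AC011510.1 added 263 to 398 fragments per library beside 33676 to 42610 on AXL.

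DLC1 (ENSG00000164741, chr8:13083361-13604610, minus strand), which is also described as a tumour suppressor, had 8.62, 8.85 and 8.89 FPKM in TIS CM, 10.8, 11.1 and 10.8 in Cont CM, and 7.79, 7.54 and 7.53 in No CM. The 3 groups were clearly separate, and the spread within a group was small: 8.79 ± 0.143 FPKM in TIS CM, 10.9 ± 0.177 in Cont CM and 7.62 ± 0.15 in No CM (SD, n = 3 each). NEXN (nexilin; ENSG00000162614, chr1:77888513-77943895, plus strand), which binds actin filaments, had 10.5, 11.0 and 11.7 FPKM in TIS CM, 17.1, 15.5 and 14.9 in Cont CM, and 8.98, 10.1 and 8.88 in No CM. The groups were again separate, and the largest gap was between Cont CM and the rest. NEXN-AS1, on the other strand, had 31 to 56 fragments per library, against 1353 to 2592 on NEXN.

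VGLL3 (ENSG00000206538, chr3:86876388-86991119, minus strand), a vestigial-like cofactor that binds TEAD factors, had 0.876, 0.812 and 0.888 FPKM in TIS CM, 1.58, 1.40 and 1.41 in Cont CM, and 0.644, 0.720 and 0.598 in No CM. The lowest Cont CM library was well above the highest of any other group. TEAD1 (ENSG00000187079, chr11:12674591-12944483, plus strand), the DNA-binding partner, had 21.9, 22.2 and 23.2 FPKM in TIS CM, 26.3, 27.0 and 24.6 in Cont CM, and 26.8, 23.8 and 23.8 in No CM. Every TIS CM library was below every library of the other groups, and Cont CM and No CM overlapped.

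The first comparison asks whether medium of senescent cells acts differently from medium of non-senescent cells. In this design senescence of the donor cells goes together with their nocodazole treatment, so effects of the 2 cannot be told apart. In TIS CM, 3 of the 10 genes were lower than in Cont CM and 0 were higher: VGLL3, NEXN and DLC1. Fold changes are on the log2(FPKM + 0.5) scale, which understates the change of low genes such as VGLL3, and a gene passed at an adjusted p under 0.05 over the 13912 genes tested (limma, Benjamini-Hochberg). Among all tested genes 1.57% passed as lower, 2.9% as higher and 4.48% in either direction. With equal library sums as the scaling, that table-wide split turned to 284 higher and 395 lower, against 404 higher and 219 lower, and 4 of the 10 genes passed as lower, TEAD1 being added (limma adjusted p = 0.0423).

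VGLL3 was 1.44-fold lower under TIS CM than under Cont CM (log2 fold change -0.53 ± 0.08, SE, n = 3 each; limma adjusted p = 0.0169), with a 95% interval of -0.72 to -0.34. On the recovered fragments (limma-voom), to which 0.5 FPKM was not added, the log2 fold change was -0.76. NEXN was 1.41-fold lower in TIS CM (-0.49 ± 0.07; limma adjusted p = 0.0122) and DLC1 1.23-fold lower (-0.29 ± 0.04; limma adjusted p = 0.00997). In each of them all 3 TIS CM libraries lay below all 3 Cont CM libraries.

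The fold changes of the 3 genes moved little when a TIS CM library was left out, but their calls did not all hold. Without TIS CM replicate 1 the log2 fold changes were -0.54 for VGLL3, -0.46 for NEXN and -0.28 for DLC1, and limma gave adjusted p = 0.0683, 0.0626 and 0.0599, so that 0 of the 10 passed. Without TIS CM replicate 2 they were -0.50, -0.49 and -0.30 (limma adjusted p = 0.0716, 0.0578 and 0.0576), and again 0 passed. Among all genes tested 11 and 25 then passed, against 623 with all libraries. Without TIS CM replicate 3, NEXN and DLC1 passed (limma adjusted p = 0.0366 and 0.0403) and VGLL3 did not (0.0585). Without Cont CM replicate 2 VGLL3 had an adjusted p of 0.0515 (limma), NEXN 0.042 and DLC1 0.0349. Without Cont CM replicate 1 all 3 passed (0.0237, 0.0142 and 0.00995, limma adjusted p). Over all alternatives the adjusted p ran from 0.000559 to 0.137 for VGLL3, from 0.001 to 0.112 for NEXN and from 0.001 to 0.0929 for DLC1.

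The fold changes of this comparison ran with GC content over the genes tested (r = 0.33, a description across genes, which share their libraries), and NEXN (38.1% GC), VGLL3 (37.3%) and DLC1 (45.7%) lie below the median of 48.5%. With the trend in GC content and length removed from each library, the log2 fold changes were -0.44 for NEXN (limma adjusted p = 0.0379), -0.22 for DLC1 (0.0225) and -0.43 for VGLL3 (0.0588). TEAD1, at 41.3% GC, then stood at -0.12 (limma adjusted p = 0.216) and AXL, at 53.9%, at 0.05 (0.4), against -0.20 and 0.09 before.

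The other 7 genes did not pass. TEAD1 (log2 fold change -0.20, 95% interval -0.33 to -0.08; limma adjusted p = 0.0707) and ANKRD1 (-0.27, interval -0.47 to -0.08; 0.103) came nearest, and both passed in limma-voom, with adjusted p = 0.0317 and 0.039. With the GC and length trend removed their limma adjusted p was 0.216 and 0.217. Without Cont CM replicate 1 the fold change of ANKRD1 was -0.16 and that of CYR61 was -0.09, against -0.19 with it (interval -0.38 to -0.01; limma adjusted p = 0.194). CTGF, the most used of the readouts, had a log2 fold change of -0.10 with an interval of -0.24 to 0.05 (limma adjusted p = 0.394). For LATS2 the log2 fold change was -0.14 (interval -0.32 to 0.04), and it was -0.03 without Cont CM replicate 1. AMOTL2 had -0.01 (interval -0.11 to 0.09), and 0.04 without that library. AXL, the 1 gene with a positive value, had 0.09 (interval 0.01 to 0.17; limma adjusted p = 0.159). The log2 fold changes were below 0 in 9 of the 10 genes and their median was -0.20, against 0.00 over all genes tested. At an unadjusted p under 0.05 (limma) there were 7 of 10, against 23.4% of all genes tested. In 6 of 10 genes all TIS CM libraries were below all Cont CM libraries, as in 13.6% of all genes tested, and in 1 they were above, as in 15% (28.6% in either direction).

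**Figure D2:**
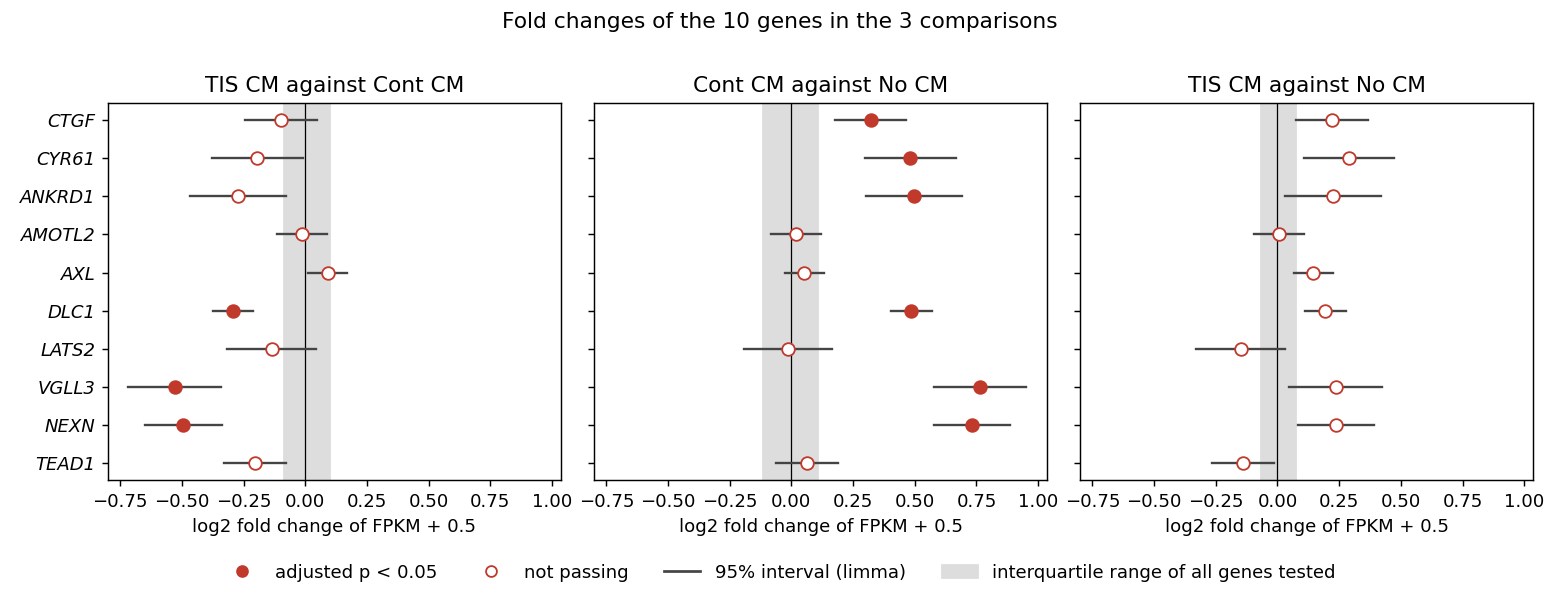
Log2 fold change of each of the 10 genes (points) with its 95% confidence interval (bars) in TIS CM against Cont CM, Cont CM against No CM and TIS CM against No CM, from limma on log2(FPKM + 0.5); filled points passed an adjusted p of 0.05, and grey bands span the interquartile range of all genes tested. VGLL3 and NEXN lie farthest from 0 both below it in the first comparison (-0.53 and -0.49) and above it in the second (0.76 and 0.73).

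The second comparison asks what conditioned medium of non-senescent cells does relative to plain medium. In Cont CM, 6 of the 10 genes were higher than in No CM and 0 were lower, against 7.77% of all genes tested that passed as higher, 8.56% as lower and 16.3% in either direction. VGLL3 was 1.70-fold higher (log2 fold change 0.76 ± 0.08, SE, n = 3 each; limma adjusted p = 0.000744) and NEXN 1.66-fold higher (0.73 ± 0.07; limma adjusted p = 0.00035). ANKRD1 was 1.41-fold higher (0.50 ± 0.09; limma adjusted p = 0.00603), DLC1 1.40-fold (0.49 ± 0.04; 0.000105), CYR61 1.40-fold (0.48 ± 0.08; 0.00542) and CTGF 1.25-fold (0.32 ± 0.06; 0.0113).

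All 6 had every Cont CM library above every No CM library. Without Cont CM replicate 1, whose values were the highest for ANKRD1 and CYR61, their log2 fold changes were both 0.38 (limma adjusted p = 0.00076 and 0.0017). With the trend in GC content and length removed, VGLL3 stood at 0.68, NEXN at 0.67, DLC1 at 0.43 and ANKRD1 at 0.43, and all passed (limma adjusted p at most 0.0145). In this comparison fold changes ran against GC content over the genes tested (r = -0.26, a description across genes).

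The genes that did not pass were both inhibitors, the receptor and the TEAD factor. AMOTL2 had a log2 fold change of 0.02 with an interval of -0.08 to 0.12, LATS2 -0.01 (-0.19 to 0.17), AXL 0.05 (-0.03 to 0.13) and TEAD1 0.06 (-0.06 to 0.19). With the trend removed AXL stood at 0.10 (limma adjusted p = 0.0735). The signs of AMOTL2, LATS2 and TEAD1 turned under other settings, AMOTL2 with equal library sums (-0.0038). The median of the 10 was 0.40, against -0.000559 over all genes tested. All Cont CM libraries were above all No CM libraries in 7 of 10 genes, as they were in 16.6% of all genes tested, and in 0 of 10 below, as in 16.8% (33.3% in either direction).

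The third comparison sets medium of senescent cells against plain medium. In TIS CM 0 of the 10 genes passed against No CM in limma, beside 0.855% of all genes tested (0.403% higher and 0.453% lower). At an unadjusted p under 0.05 there were 8 of 10, against 13.6% of all genes tested. Limma-voom called 2, CYR61 and DLC1, against 1.76% of all genes tested. DLC1 came nearest (log2 fold change 0.19, interval 0.11 to 0.28; limma adjusted p = 0.0528), and passed with the GC and length trend removed (0.21; limma adjusted p = 0.0228). AXL had 0.14 (0.07 to 0.22; 0.118), CYR61 0.29 (0.11 to 0.47; 0.164), NEXN 0.24 (0.08 to 0.39; 0.171), CTGF 0.22 (0.08 to 0.37; 0.173), VGLL3 0.24 (0.05 to 0.42; 0.251) and ANKRD1 0.23 (0.03 to 0.42; 0.293). TEAD1 (-0.14, -0.27 to -0.01; 0.317) and LATS2 (-0.15, -0.33 to 0.03; 0.454) were the 2 with negative values, and AMOTL2 stood at 0.01. Without No CM replicate 1 TEAD1 stood at -0.08.

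In 7 of 10 genes all TIS CM libraries lay above all No CM libraries, as in 12.7% of all genes tested. In 2 of 10, TEAD1 and LATS2, they lay below, as in 11.6% (24.4% in either direction). Without Cont CM replicate 1, which enters this comparison only through the variance estimates, 4 genes passed: CYR61 (limma adjusted p = 0.0175), ANKRD1 (0.0194), DLC1 (0.0284) and AXL (0.0397). Of all genes tested 2.62% then passed, against 0.855% with all libraries. The comparisons share their libraries in pairs, so the values of a gene in one of them are not independent of those in another.

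**Figure D3:**
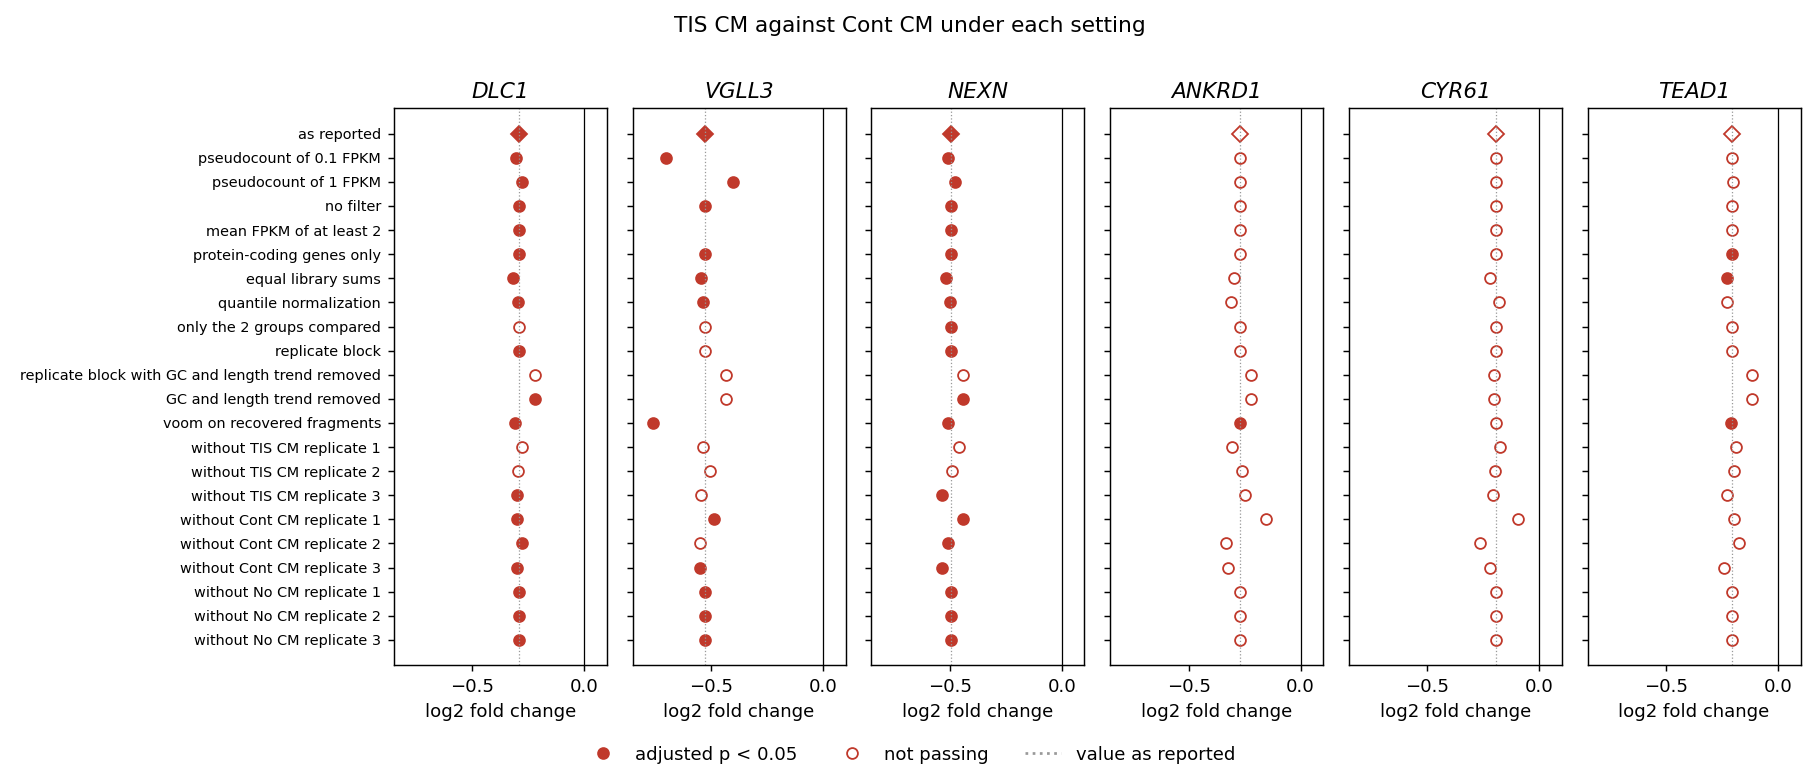
Log2 fold change in TIS CM against Cont CM (horizontal axes, scale of log2(FPKM + 0.5) except for voom) of 6 of the genes, 1 panel each, as reported (diamond, dotted line) and under each processing alternative (circles, 1 per row); filled symbols passed an adjusted p of 0.05. The values of DLC1, VGLL3 and NEXN stay below 0 throughout, VGLL3 between -0.76 and -0.40, and that of CYR61 is nearest to 0 without Cont CM replicate 1 (-0.09).

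Of the coactivators themselves, YAP1 had 49.0 ± 1.86 FPKM in TIS CM, 54.3 ± 2.35 in Cont CM and 48.4 ± 1.60 in No CM (SD, n = 3 each). It did not pass in TIS CM against Cont CM (log2 fold change -0.15; limma adjusted p = 0.0923) and was higher under Cont CM than under No CM (0.17; limma adjusted p = 0.0368), a call kept in 9 of 21 alternatives. WWTR1 had 11.1 ± 0.00553 FPKM in TIS CM, 10.6 ± 0.834 in Cont CM and 11.9 ± 0.918 in No CM, and did not pass in any comparison (limma adjusted p at least 0.119). TEAD4, another TEAD factor, was higher under TIS CM than under Cont CM (0.19; limma adjusted p = 0.0478) and lower under Cont CM than under No CM (-0.19; 0.0223). The first of these TEAD4 calls was lost in 16 of 21 alternatives and the second in 7 of 21. LATS1, TEAD2, TEAD3 and SRF did not pass in any comparison (limma adjusted p at least 0.314).

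A published signature of 22 YAP/TAZ targets, derived from other tumours, holds 6 of the 10 genes (CTGF, CYR61, ANKRD1, AMOTL2, AXL and LATS2). Of its other 16 genes, 1 was lower and 0 were higher under TIS CM than under Cont CM (4.48% of all genes tested passed), with a median log2 fold change of -0.09. That gene was CCDC80, a secreted matrix protein, at 11.9 ± 0.0558 FPKM in TIS CM, against 14.5 ± 0.415 in Cont CM (SD, n = 3 each; -0.27, limma adjusted p = 0.00997, lost in 5 of 21 alternatives). Voom called 2 of the 16, CCDC80 and F3, beside 7.80% of all genes tested. In limma F3 had a log2 fold change of -0.55 (adjusted p = 0.0715). An unadjusted p under 0.05 (limma) was found for 6 of the 16, beside 23.4% of all genes tested. Under Cont CM, against No CM, 3 of the 16 were higher and 1 was lower (16.3% of all genes tested passed), with a median of 0.07. F3 (tissue factor, 0.91; limma adjusted p = 0.00504), CCDC80 (0.50; 0.000105) and NT5E (CD73, an enzyme that makes adenosine, 0.38; 0.0287) were the higher ones, and ARHGEF17, a guanine nucleotide exchange factor, was lower (-0.27; 0.00999). The NT5E call was lost in 9 of 21 alternatives and the other 3 in 0. Voom called the same 4 genes, beside 19.4% of all genes tested, and 5 of the 16 had an unadjusted p under 0.05 (limma), beside 31.3%. F3 had 652 FPKM in Cont CM replicate 1 and 432 and 423 in the other Cont CM libraries, against 243 to 297 in No CM. In TIS CM against No CM 1 of the 16, CCDC80, was higher (0.23, limma adjusted p = 0.0292, lost in 9 of 21 alternatives), beside 0.855% of all genes tested that passed. Voom called CCDC80 alone, beside 1.76%, and 4 of the 16 had an unadjusted p under 0.05 (limma), beside 13.6%.

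Of 32 other Hippo pathway genes tested, 1 was higher and 1 lower under TIS CM than under Cont CM, with a median of -0.04 (4.48% of all genes tested passed). Voom called 4, beside 7.80% of all genes tested, and 7 had an unadjusted p under 0.05, beside 23.4%. The genes called in limma were TEAD4, which was higher, and FRMD6, a FERM-domain protein that acts upstream of the Hippo kinases, which was lower (-0.23, limma adjusted p = 0.0241, lost in 8 of 21 alternatives). In Cont CM against No CM voom called 11 of the 32, beside 19.4% of all genes tested. Relative to No CM, Cont CM had 4 of the 32 higher and 2 lower in limma, a share near the 16.3% of all genes tested, with a median of 0.06. FRMD6 (0.41; limma adjusted p = 0.000449), STK4, the Hippo kinase MST1 (0.28; 0.0142), its scaffold SAV1 (0.21; 0.0269) and YAP1 were the higher ones. TEAD4 and WWC3 (-0.18; limma adjusted p = 0.0219) were lower. The SAV1 and WWC3 calls were each lost in 7 of 21 alternatives and the STK4 call in 2. Under TIS CM against No CM, 0 of the 32 passed in limma, while voom called 1 (FRMD6) and 4 had an unadjusted p under 0.05. The shares of all genes tested were 0.855%, 1.76% and 13.6%.

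NEXN is also counted among the targets of SRF, which reads actin polymerization through the MRTF cofactors. Of 29 other actin and SRF/MRTF target genes tested, 1 was lower and 0 were higher under TIS CM than under Cont CM: CALD1, an actin- and myosin-binding protein (-0.34; limma adjusted p = 0.0134, lost in 6 of 21 alternatives). The median was -0.06, and 11 of the 29 had an unadjusted p under 0.05, against 23.4% of all genes tested. Limma called 4.48% of all genes tested and voom 7.80%, and voom called 5 of the 29 (TAGLN2, FLNC, FHL2, CALD1 and FILIP1L). Voom called 11 of the 29 in Cont CM against No CM, beside 19.4% of all genes tested. In limma Cont CM had 8 of the 29 higher and 1 lower than No CM, with a median of 0.07, where 16.3% of all genes tested passed. The 5 higher ones with the smallest adjusted p were CALD1 (0.45; limma adjusted p = 0.000676), the LIM protein FHL2 (0.53; 0.00103), tropomyosin TPM4 (0.26; 0.00177), filamin FLNC (0.40; 0.00375) and TPM1 (0.34; 0.0135). By fold change TAGLN (0.80; limma adjusted p = 0.0479, lost in 13 of 21 alternatives) and FILIP1L (0.61; 0.0176, lost in 5) led, both chosen for mention after their values were seen. TAGLN2 was lower (-0.17; limma adjusted p = 0.00913). Against No CM, TIS CM had 0 of the 29 passing in limma, 9 at an unadjusted p under 0.05, and 1 (FHL2) passing in voom. The shares of all genes tested were 0.855%, 13.6% and 1.76%.

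Of the 6 CCN family genes, CTGF, CYR61 and NOV were expressed enough to be tested, and NOV passed in no comparison in limma or voom, with an unadjusted p under 0.05 in both comparisons of TIS CM. Of the 4 TAM receptors and ligands other than AXL, GAS6, the ligand of AXL, was lower under Cont CM than under No CM (-0.26, limma adjusted p = 0.0304, lost in 9 of 21 alternatives). It was the 1 gene of the 4 called in limma there, beside 16.3% of all genes tested. Voom called 2, GAS6 and PROS1, beside 19.4%, and 2 had an unadjusted p under 0.05 (limma), beside 31.3%. PROS1 had the opposite sign (0.28, limma adjusted p = 0.0730). In the other comparisons limma and voom called 0 of the 4. An unadjusted p under 0.05 was found for 1 in TIS CM against Cont CM (23.4% of all genes tested) and 2 in TIS CM against No CM (13.6%). Of the 4 relatives of ANKRD1 and NEXN in the table, these 2 themselves were the ones tested.

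**Figure D4:**
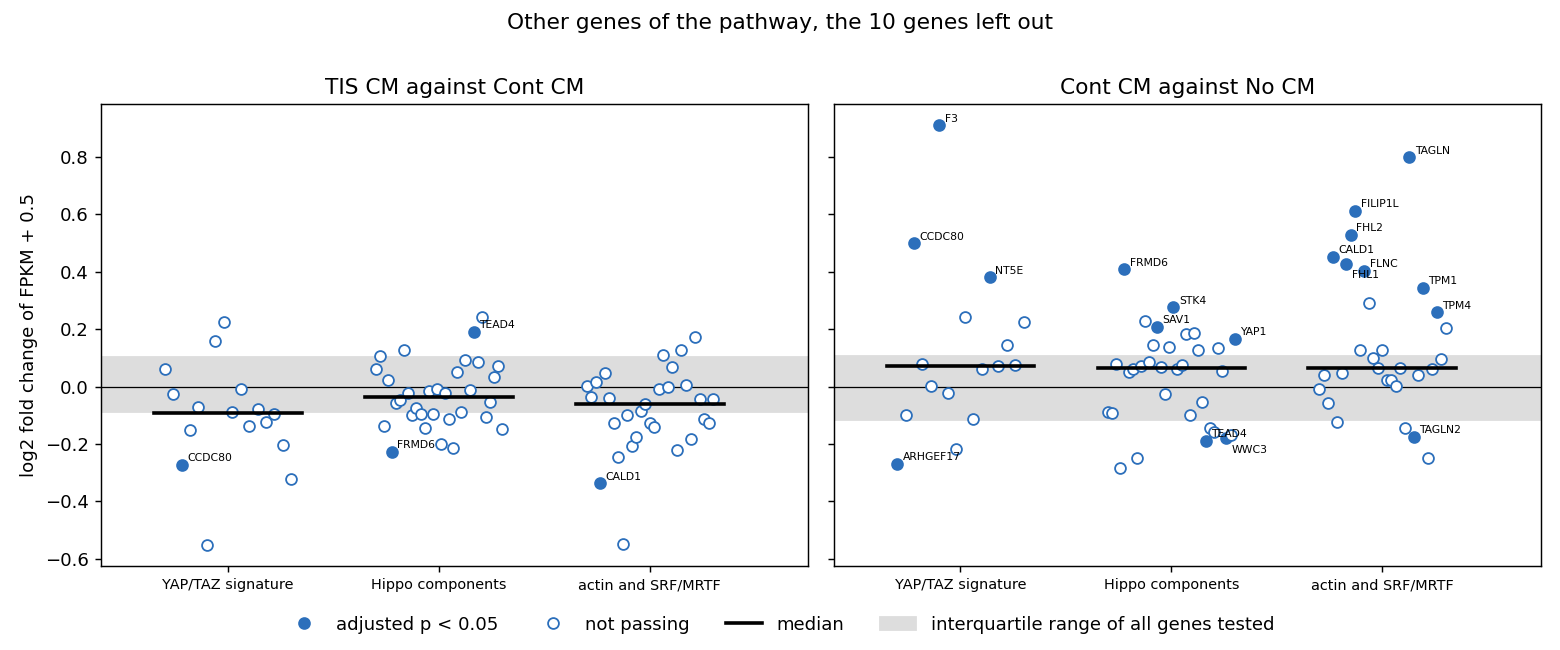
Log2 fold change of every tested gene (points) in 3 gene lists, the 10 genes left out, in TIS CM against Cont CM and in Cont CM against No CM, with the list median (line); filled points passed an adjusted p of 0.05 in limma, and grey bands span the interquartile range of all genes tested. List medians lie between -0.09 and -0.04 in the first comparison and between 0.06 and 0.07 in the second. They are nearer to 0 than the medians of the 10 genes (-0.20 and 0.40). The genes and lists were chosen with earlier results of these data known, so this contrast is a description only.

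The 10 genes did not all share 1 pattern over the libraries. Pearson correlations of log2(FPKM + 0.5) over the 9 libraries, which hold 3 groups and so are given as a description, were 0.96 for CYR61 with ANKRD1 and 0.99 for VGLL3 with NEXN. CTGF correlated less with CYR61 (0.65), and with LATS2 it had a negative value (-0.45). Among all tested protein-coding genes, those most like CYR61 were ADTRP (0.987), TMEM171 and KIF3C, and those most like ANKRD1 were ANO10 (0.990), PIP5K1A and HBEGF. VGLL3 was nearest to PLOD2 (0.992), ADAMTS16 and CALD1, and NEXN to CALD1 (0.992), UBL3 and VGLL3. DLC1 was nearest to GTPBP4 (0.993), CCDC80 and NBPF9, and CTGF to PDCD1LG2 (0.985), MAN2A1 and ADAMTS12. AXL had MFGE8 (0.971), KIFC3 and SDC1, AMOTL2 had UPF1 (0.974), AP1M2 and CHST7, LATS2 had STK38 (0.967), SYNPO and LIPA, and TEAD1 had YLPM1 (0.951), PIK3CB and MED13L. With 9 libraries and 11276 protein-coding genes to rank, the values serve as a ranking only.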

How the data were processed

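Polyadenylated RNA of 9 MDA-MB-231 libraries was sequenced. Per the submitters' processing notes, build hg38 and the tools DESeq2 1.20.0, featureCounts 1.5.0-p3, HISAT2 2.0.5 and fastp were used, with no roles stated. The authors deposited FPKM for 58735 genes. Multiplied by gene length, 100% of values in a library were whole multiples of 1 step (within 0.01), which gave back the fragments. Library scaling takes most genes as equal between groups. Strand use in counting is not stated in any source used, and reads of antisense genes cannot be told apart.

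Genes with a mean of at least 0.5 FPKM (13912) were tested on log2(FPKM + 0.5) with limma 3.58.1 (R 4.3.3), 1 fit of all 9 libraries with an intensity trend, and Benjamini-Hochberg adjustment over all of them. Python 3.11.15 and matplotlib 3.10.9 were used for the rest. The limma steps were tested on simulated data as a check of the code. The simulation held no trend with GC content and no outlying library, so it does not give error rates for these data. The same replicate number did not pair libraries. No 2 libraries of a group differed by as little as sampling noise. P-values measure the spread between libraries, which may be technical. The text names the 10 genes, YAP1, WWTR1, TEAD2, TEAD3, TEAD4, LATS1 and SRF, up to 5 called genes per direction of each list, and the 3 genes most like each. The genes and lists were chosen with earlier results of these data known. Some genes examined are not reported here. Alternatives were other pseudocounts (0.1 and 1), filters, scalings, voom, 2-group fits, a replicate block, GC and length correction, and leaving out each library.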

Additional observations from a re-analysis of the deposited data

How the results depend on the processing

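In TIS CM against Cont CM, where 3 genes passed, 1 passed with only the 2 groups fitted (NEXN), 5 with voom and 0 with the replicate block plus removal of the GC and length trend. Of all genes tested these settings called 0.237%, 7.80% and 0.0863%. Leaving out 1 library gave 0 to 3. The replicate block alone gave 2 (DLC1 and NEXN); over the whole table it left 126 genes, against 623. In Cont CM against No CM 6 passed, also under the block, and leaving out 1 library gave 6 each time. The margin was narrow for CTGF, whose limma adjusted p reached 0.0494 with 1 library left out. In TIS CM against No CM, where 0 passed, the block also gave 0. With protein-coding genes only or with the trend removed 1 passed (DLC1 both times), beside 1.86% and 1.15% of all genes in these settings. With voom 2 passed (1.76% of all genes), with only the 2 groups fitted 4 (2.38%), and with 1 library left out 0 to 4. The same replicate number did not pair libraries: deviations from group means correlated at -0.19 to 0.08 between libraries of the same number. Over the 10 genes, 3 comparisons and 21 alternatives (20 for VGLL3, which a filter at 2 FPKM removes), 584 values kept direction and call, 15 lost the call, 16 gained one and 12 turned sign, and the cause was not tested. Those 12 were in genes with values near 0. With 1 library left out, AMOTL2 ran from -0.0432 to 0.0372 in TIS CM against Cont CM, from -0.0312 to 0.0493 in Cont CM against No CM (both ends without a Cont CM library) and from -0.0059 to 0.0194 in TIS CM against No CM. LATS2 ran from -0.1212 to 0.0529 in Cont CM against No CM. With equal library sums AMOTL2 was -0.0038 in Cont CM against No CM and -0.0413 in TIS CM against No CM, where quantile normalization gave -0.0131. With the GC and length trend removed, with or without the replicate block, Cont CM against No CM gave 0.0109 for LATS2 and -0.0121 for TEAD1. Calls over the whole table ran from 11 to 1085 in TIS CM against Cont CM, from 1075 to 2770 in Cont CM against No CM and from 4 to 365 in TIS CM against No CM. With equal library sums TIS CM against No CM had 28 genes higher and 106 lower, against 56 and 63. Count models in edgeR and DESeq2 on the recovered fragments were planned and not run. All 10 genes had at least 261 fragments in every library, and precision is limited by the 3 libraries per group.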
